A study of Mus musculus with 4 samples.

Results

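Killer lectin-like receptors are C-type lectin-like proteins on the surface of natural killer (NK) cells and of some T cells, and the chromatin at their genes was measured here in T cells of a mouse colorectal tumor and of the cecum beside it. The members are the 33 mouse genes whose symbol starts with Klr, all on chromosome 6, of 21892 genes counted. For 31 of them, 27 protein-coding genes and 4 pseudogenes, fragments could be counted. The other two, Klra16 and Klra23, are placed by the gene table below the lowest chromosome 6 position of either library and could not be measured. The samples were nuclei of T cells sorted from AKP tumors, which grow in the cecal wall from transplanted organoids that carry engineered tumor mutations, Apc and Trp53 loss among them, and from adjacent tumor-free cecum, 4 weeks after transplantation. The mouse strain, age and number of animals behind each library were not given in the sources used here. Each nucleus was profiled for transcripts and accessible chromatin (ATAC) with a 10x multiome kit, and each tissue gave 1 ATAC library. The 17 cell type labels came from the authors' clusters of the transcripts of these nuclei. The RNA counts were not analysed here.

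Sequencing yielded 66466111 fragments from the cecum, with 7155 labelled cells at a median of 4374 fragments, and 96747563 fragments from the tumor, with 8466 labelled cells at a median of 5846. The labelled cells carried 66.2% and 64.2% of the fragments, and 84 labelled barcodes occurred in both libraries. Levels are fragments with an end within the gene span or 5 kb of it, per 1000000 fragments of the label (FPM), with exact 95% Poisson intervals that cover counting error only. Because each tissue has 1 library, no difference was tested over animals, tissue and library cannot be told apart, and no p-value is given. The PD1+ CD4 label, with 14 cecum and 616 tumor cells, was left out of orders of labels, which hold 16 labels. Of 10 lineage markers 7 were highest in a label of their own lineage in both libraries, and Il2ra and Zbtb16 were highest in Rorgt gdT and Maf in Tfh-like and IL10+ Treg. Foxp3 was highest in IL10+ Treg (102 FPM in cecum, 79.2 in tumor), Cd8a in PD1+ CD8 (95.5 and 89.96) and Trdc in Cytotoxic gdT (77.8 and 68.0). Of 5 NK cell markers, Eomes, Fcgr3, Gzma and Prf1 were above the 95th percentile of closed chromatin, described below, and T cells also use several of these. The defining Ncr1 was at 0.0325 and 0.0571 FPM per kb, below that percentile. Of 6 epithelial markers 5 were above that percentile. The summed epithelial level ran from 0.389 to 1.17 FPM per kb over the labels in the cecum and from 0.496 to 1.19 in the tumor. It was highest in Innate-like T#1 in each library. The summed NK cell level ran from 0.479 to 2.46 and from 0.544 to 2.51, highest in PD1+ CD8 in each. The summed B cell level ran from 0.205 to 0.338 and from 0.212 to 0.310, and the myeloid level from 0.841 to 1.42 and from 0.910 to 1.41. The part of other cells in the results was not tested.

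In mice the family falls into groups by partner and ligand. Klrd1 (CD94) pairs with the Klrc (NKG2) chains to read the nonclassical MHC molecule Qa-1, with an inhibitory Klrc1 chain and activating Klrc2 and Klrc3 chains. Klrk1 (NKG2D) is an activating receptor for stress-induced ligands, the Klrb1 (NKR-P1) receptors read Clec2 proteins, and the Klra (Ly49) receptors read classical MHC class I. Klrg1 is an inhibitory receptor for cadherins and is known as a marker of terminally differentiated CD8 T cells and of a subset of tissue Treg cells. The genes other than Klrg1 and Klrg2 stand together in the NK gene complex.

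The promoters show how alike some members are. Promoter sequences from RefSeq (GRCm38.p6) were at hand for 24 members, with 29 start sites in all. Klrg1, Klrd1, Klri2 and the 4 pseudogenes had no entry. The 250 bases before each start were searched on both strands for 4 motifs that bind factors of cytotoxic or type 17 T cells, and capitals mark the matches in the first 4 sequences. The sequences of Klrb1a and Klrb1c are printed because they are alike while the genes differed in their levels, that of Klrb1b because its gene was highest in Rorgt gdT in the cecum, and that of Klrk1 for its RUNX match.
Klrb1a (chr6:128622935-128623184, minus strand): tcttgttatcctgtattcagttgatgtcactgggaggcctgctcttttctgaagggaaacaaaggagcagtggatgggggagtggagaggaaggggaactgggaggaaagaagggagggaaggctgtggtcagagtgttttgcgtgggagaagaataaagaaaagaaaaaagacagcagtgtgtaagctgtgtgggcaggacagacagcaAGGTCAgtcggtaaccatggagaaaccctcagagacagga
Klrb1c (chr6:128788642-128788891, minus strand): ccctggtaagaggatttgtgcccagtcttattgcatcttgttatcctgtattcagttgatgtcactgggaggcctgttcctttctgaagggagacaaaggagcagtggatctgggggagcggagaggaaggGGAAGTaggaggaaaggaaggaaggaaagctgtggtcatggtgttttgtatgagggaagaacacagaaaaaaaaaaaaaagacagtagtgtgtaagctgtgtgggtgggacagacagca
Klrb1b (chr6:128826316-128826565, minus strand): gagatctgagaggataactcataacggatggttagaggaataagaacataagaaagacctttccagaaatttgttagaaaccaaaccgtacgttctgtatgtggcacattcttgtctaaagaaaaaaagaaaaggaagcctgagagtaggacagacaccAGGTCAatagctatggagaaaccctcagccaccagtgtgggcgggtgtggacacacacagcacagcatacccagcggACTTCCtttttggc
Klrk1 (chr6:129623865-129624114, minus strand): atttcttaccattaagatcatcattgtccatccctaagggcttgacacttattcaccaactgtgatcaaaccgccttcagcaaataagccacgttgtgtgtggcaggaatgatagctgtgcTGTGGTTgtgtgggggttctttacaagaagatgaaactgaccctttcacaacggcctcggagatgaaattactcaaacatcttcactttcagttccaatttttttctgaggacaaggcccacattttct

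The T-box motif GGTGTGA was in 3.33% of 32851 promoters and in 0 of the 29 of Klr genes. The RUNX motif TGTGGTT was in 4.40% of all promoters and in 3 of 29, those of Klra1, Klre1 and Klrk1. The ROR motif AGGTCA was in 14.0% of all and in 3 of 29, at Klrb1a and both starts of Klrb1b. The ETS motif GGAAGT was in 19.7% of all and in 4 of 29, at Klrb1b, Klrb1c and Klrb1f. These matches describe letters and are not binding sites. In a global alignment 75.2% of the 250 bases before the Klrb1a start were identical in Klrb1c, and 49.6% of those of Klrb1c were identical in Klrb1b. For scale, Klrg2, outside the complex, had 53.2% with Klra1, the highest of its 23 comparisons. Klra9 and Klra3 encode closely related Ly49 receptors. Their promoters had 224 identical bases (89.6%) and are printed with the bases that had no identical partner in capitals, including ends that are shifted.
Klra9 (chr6:130193113-130193362, minus strand): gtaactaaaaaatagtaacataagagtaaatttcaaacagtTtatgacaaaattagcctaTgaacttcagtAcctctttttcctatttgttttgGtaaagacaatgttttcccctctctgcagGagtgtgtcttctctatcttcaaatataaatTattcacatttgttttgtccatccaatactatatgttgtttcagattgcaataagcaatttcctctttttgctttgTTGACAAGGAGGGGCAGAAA
Klra3 (chr6:130337627-130337876, minus strand): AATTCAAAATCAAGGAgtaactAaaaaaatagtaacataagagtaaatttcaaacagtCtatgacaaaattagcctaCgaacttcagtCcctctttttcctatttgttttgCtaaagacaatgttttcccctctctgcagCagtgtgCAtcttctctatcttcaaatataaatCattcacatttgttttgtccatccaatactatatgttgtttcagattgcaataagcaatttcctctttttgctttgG
Reads that fit several such copies may have been placed at either or lost when the authors aligned them, so the levels of single Klra genes are uncertain, and this was not tested.

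Windows overlap in 4 places of the complex, between Klre1 and Klrd1, along Klrc3, Klrc2 and Klrc1, between Klri1 and Klri2 and between Klra10 and Klra13-ps, and from 59.2% (Klrc2) to 95.4% (Klri1) of such a window is unshared. Klrd1 had 62.6% of its window to itself. Levels between genes were compared per kb of window. Klrg1 (chr6:122270596-122282833) and Klrd1 (chr6:129588092-129598775) had the highest levels of the family, 1.38 and 1.34 FPM per kb over all labelled cecum cells and 1.56 and 1.67 over those of the tumor. Klre1, which forms receptors with the Klri chains, followed with 0.792 and 0.943, Klrk1 with 0.789 and 0.943, and Klrc1 with 0.758 and 0.973. Klrb1c, whose product is the NK1.1 antigen, was at 0.631 and 0.6996, the inhibitory Klrb1b at 0.579 and 0.6002, and Klrg2, a relative of Klrg1 outside the complex, at 0.529 and 0.683. The median over all genes was 0.666 and 0.694. Closed chromatin was read from 1465 olfactory and vomeronasal receptor genes, with a median of 0.0154 and 0.0147 and a 95th percentile of 0.104 and 0.102 FPM per kb. Of the 31 members 25 were above that percentile in both libraries, against 69.2% of 21890 genes. The 5 below it in both were Klra17, Klra4, Klra8, Klra14-ps and Klra2, and Klra10 was below it in the cecum only.

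Levels over the labels repeated between the libraries for part of the family. For 15 of 31 members the same label was highest in both libraries, against 26% of 17360 genes with at least 50 fragments in each. CD8aa led for 7 members in both libraries (Klrb1, Klre1, Klrd1, Klrk1, Klrh1, Klra5 and Klra9), Innate-like T#2 for 4 (Klrb1c, Klrb1f, Klra10 and Klra13-ps) and Innate-like T#1 for Klrb1a and Klra6. Klri2 was led by Rorgt gdT and Klrg2 by Th17 in both. The leading label was clear of the second by its interval in both libraries for Klrb1, Klre1 and Klrd1, in 1 library for Klra5 and in neither for the other 11. No share over all genes is given for this, and the windows of Klre1 and Klrd1 overlap. Within 1 kb of either gene end 13 members had enough fragments and 4 of them had the same leading label in both (17.6% of all genes there), and near annotated starts 6 of 8 did (17.5%). For 20 of 31 members the leading label was an innate or cytotoxic label in each library, against 12.6% of the 17360 genes. Over all 31 windows joined, CD8aa had 502 FPM (cecum) and 525 FPM (tumor), Innate-like T#2 444 and 410, Innate-like T#1 389 and 379, and Cytotoxic gdT 368 and 399. The lowest were Tfh-like with 85.4 and 92.7 and CCR7+ CD4 with 95.6 and 112. PD1+ CD4, a helper label outside the order, had 364 in the tumor, above Cytotoxic CD8 (348) and PD1+ CD8 (336). In the cecum it had 337, from 30 fragments. Over the joined Klri and Klrh1 windows it was the highest tumor label, with 45.1 FPM against 33.4 in Rorgt gdT.

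**Figure D1:**
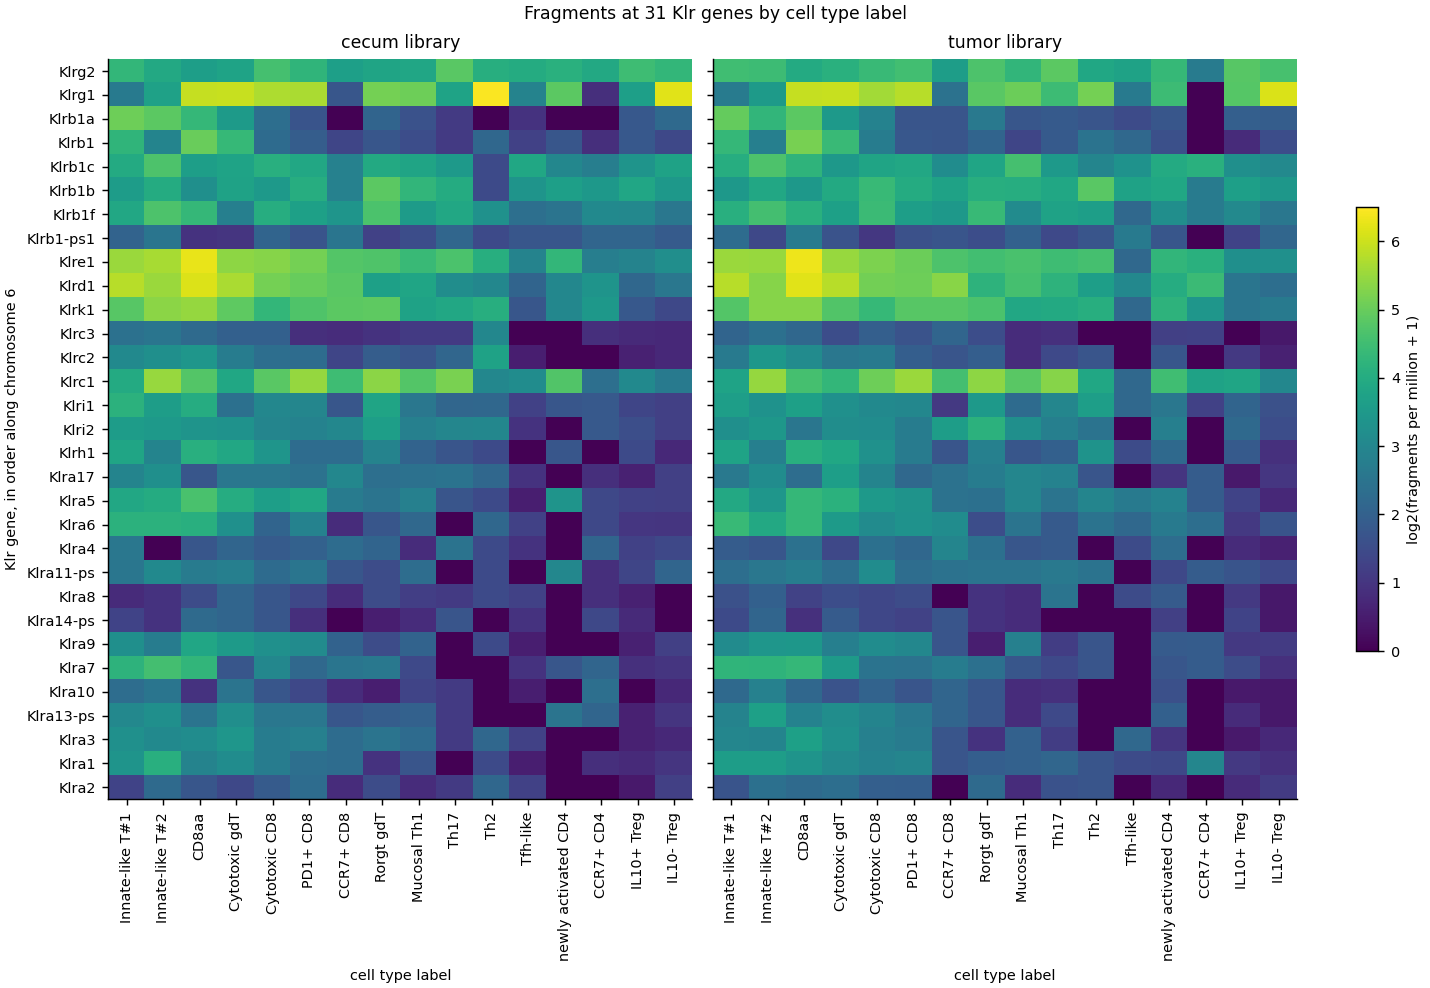
Level of each of 31 Klr genes (rows, in order along chromosome 6) in 16 cell type labels (columns) in the cecum and tumor libraries, as log2(FPM + 1) from summed fragments, 1 library per tissue. Klrd1, Klre1 and Klrk1 are brightest in CD8aa, while Klrg1 is bright in IL10- Treg, CD8aa, the cytotoxic labels and, in the cecum, Th2.

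Klrg1 had an order of its own. In the cecum its level was highest in Th2, at 87.9 FPM (65.2 to 116), and in IL10- Treg, at 72.6 (63.3 to 82.96). Cytotoxic gdT (60.8), CD8aa (59.9), Cytotoxic CD8 (51.4) and PD1+ CD8 (50.5) came next, then Rorgt gdT (34.2), Mucosal Th1 (32.6) and newly activated CD4 (28.1). Levels were low in Th17 (12.6), Innate-like T#2 (12.3), IL10+ Treg (11.7), Tfh-like (6.6), Innate-like T#1 (5.3), CCR7+ CD8 (2.4) and CCR7+ CD4 (0.84). Neighbours in the first 6 places had overlapping intervals. The innate-like labels, which led 6 other members in both libraries, stood near the bottom.

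In the tumor the order of Klrg1 was led by IL10- Treg with 68.9 FPM (62.3 to 76.0). Cytotoxic gdT had 60.6, CD8aa 60.4, PD1+ CD8 55.0, Cytotoxic CD8 47.1 and Th2 34.2 (19.1 to 56.4). Mucosal Th1 (31.6), Rorgt gdT (27.8), IL10+ Treg (26.4), newly activated CD4 (21.0) and Th17 (20.9) stood in the middle. Innate-like T#2 (10.6), Innate-like T#1 (5.5), Tfh-like (5.4) and CCR7+ CD8 (4.5) were low, and CCR7+ CD4 had 0 fragments, with an upper limit of 5.05 FPM. PD1+ CD4, outside the order, had 32.9. The cecum Th2 value rested partly on 1 cell of 90, which held 17 of the 50 fragments, while in the other labels and libraries no cell held more than 7 fragments of Klrg1, Klrd1, Klrk1 or Klrc1. Without that cell Th2 fell to 59.5 FPM (41.0 to 83.6) and to place 4 of 16.

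**Figure D2:**
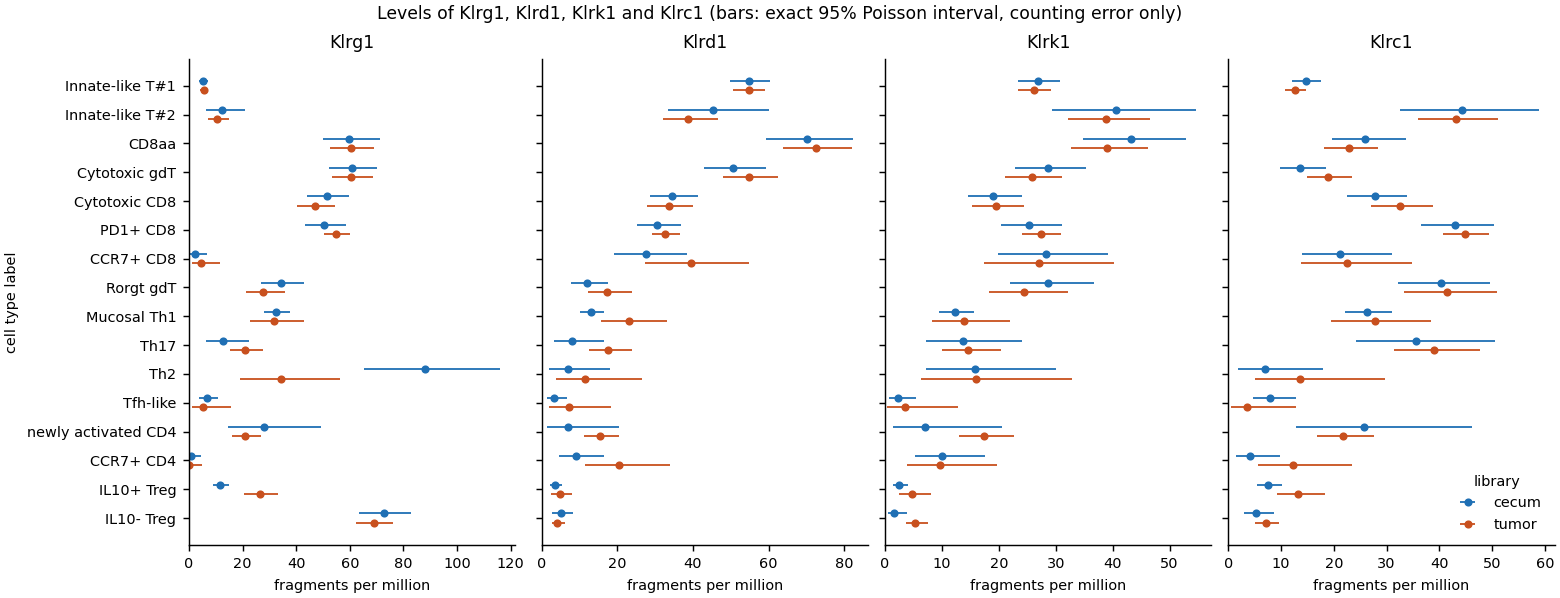
FPM of Klrg1, Klrd1, Klrk1 and Klrc1 in 16 labels (rows) in the cecum (blue) and tumor (orange) library, with exact 95% Poisson intervals as bars. Klrg1 separates IL10- Treg (72.6 and 68.9) from IL10+ Treg (11.7 and 26.4), Klrd1 and Klrk1 are highest in CD8aa, and Klrc1 is high in Innate-like T#2, PD1+ CD8, Rorgt gdT and Th17.

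Klrd1, the CD94 chain, was highest in CD8aa in both libraries, at 70.1 FPM (59.3 to 82.2) in cecum and 72.5 (63.8 to 82.1) in tumor cells, and the interval of its ratio to the next label lay above 0 in each. Innate-like T#1 (54.9 and 54.7) and Cytotoxic gdT (50.5 and 54.9) followed. Innate-like T#2 (45.2 and 38.8) stood above Cytotoxic CD8 (34.5 and 33.6), PD1+ CD8 (30.5 and 32.7) and CCR7+ CD8 (27.6) in the cecum, while in the tumor CCR7+ CD8 was at 39.4, and the intervals of these 4 labels overlapped in each library. The CD4 helper labels lay lower, from 3.3 in Tfh-like to 13.1 in Mucosal Th1 for the cecum, and 7.1 and 23.2 in these labels for the tumor. Both Treg labels were as low, with IL10+ Treg at 3.5 and 4.8 and IL10- Treg at 5.0 and 4.1. Tumor PD1+ CD4 was an exception among the helper labels, at 31.3.

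Klrk1, the NKG2D receptor, was highest in CD8aa (43.2 FPM in cecum, 39.0 in tumor) and Innate-like T#2 (40.5 and 38.8), whose intervals overlapped. Rorgt gdT (28.7 and 24.5), Cytotoxic gdT (28.6 and 25.8), CCR7+ CD8 (28.3 and 27.0), Innate-like T#1 (26.9 and 26.2) and PD1+ CD8 (25.3 and 27.3) could not be told from each other by their intervals. Its lowest levels were again in Tfh-like (2.3 and 3.6), IL10+ Treg (2.5 and 4.8) and IL10- Treg (1.7 and 5.3). Klre1, whose window overlaps that of Klrd1, ran from 5.9 in CCR7+ CD4 to 76.6 in CD8aa of the cecum, and from 3.6 in Tfh-like to 80.3 in CD8aa of the tumor.

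Klrc1, the inhibitory NKG2A chain, had its own order. Innate-like T#2 (44.3 FPM in cecum, 43.1 in tumor), PD1+ CD8 (43.0 and 44.9), Rorgt gdT (40.2 and 41.4) and Th17 (35.6 and 38.9) were the highest, with overlapping intervals. CD8aa, the top label of Klrd1, was at 26.0 and 22.8, and Innate-like T#1 at 14.6 and 12.6. Tumor PD1+ CD4 had 40.7. The activating chains Klrc2 and Klrc3 were much lower, at 0.184 and 0.121 FPM per kb in the cecum against 0.758 for Klrc1. The windows of Klrc3 and Klrc2 and of Klrc2 and Klrc1 overlap, so some of their fragments are shared.

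The Klrb1 group had 6 members, with levels from 0.114 (Klrb1-ps1) to 0.631 (Klrb1c) FPM per kb in cecum cells, and from 0.115 to 0.6996 for the same genes in tumor cells. Klrb1a was at 32.2 FPM in Innate-like T#1, 28.3 in Innate-like T#2 and 19.0 in CD8aa of the cecum, and at 30.3, 18.6 and 28.3 in the same tumor labels, with at most 10.6 and 10.9 in any other label. Klrb1 was highest in CD8aa (31.1 and 34.7), then in Cytotoxic gdT (19.6 and 20.04) and Innate-like T#1 (18.0 and 19.1), and was at 6.6 and 6.0 in Innate-like T#2. Klrb1b was at 28.2 in Rorgt gdT of the cecum, above the next label, Mucosal Th1, at 18.6. In the tumor Rorgt gdT was at 16.0, and the highest label was Th2 at 27.3, from 58 cells. Klrb1c, whose promoter resembles that of Klrb1a, had a flatter profile, with 24.5 and 24.9 in Innate-like T#2 and medians over labels of 12.5 and 12.98.

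The Klri, Klrh and Klra genes were at 0.416 FPM per kb or lower in each library. This range also holds Klrb1, Klrb1-ps1, Klrc2 and Klrc3. In both libraries 5 of the 14 Klra members were below the closed chromatin percentile. Klri1, a partner of Klre1, was at 16.98 FPM in Innate-like T#1 and 15.3 in CD8aa of the cecum, and at 11.6 and 11.8 in those of the tumor. Klrh1 was at 16.2 in CD8aa in each library and at 13.96 and 13.6 in Cytotoxic gdT. Klrg2 was spread over many labels, with 27.6 and 28.2 in Th17 and 21.2 and 27.1 in IL10+ Treg, and its lowest level was 11.6 (CD8aa) in the cecum and 5.5 (CCR7+ CD4) in the tumor. The 14 Klra members ranged from 0.0271 to 0.360 FPM per kb in the cecum, with a median of 0.146, and from 0.0400 to 0.416, with a median of 0.191, in the tumor. Klra7 was at 22.6 and 17.6 FPM in Innate-like T#2, 18.6 and 19.1 in CD8aa and 17.4 and 18.2 in Innate-like T#1. Klra6 was at 17.1 and 19.8 in Innate-like T#1 and at 16.2 and 19.1 in CD8aa, and Klra5 at 23.7 and 19.1 in CD8aa. Among these 3 genes the first label was clear of the second by its interval for Klra5 in the cecum.

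In each library the family was compared between labels of innate or cytotoxic cells and labels of CD4 helper cells. These classes were chosen for this report because such receptors are known from NK and cytotoxic cells. PD1+ CD8, CCR7+ CD8, Rorgt gdT and the Treg labels were in neither class. The pools were Innate-like T#1 and #2, Cytotoxic gdT, CD8aa and Cytotoxic CD8 over CCR7+ CD4, newly activated CD4, PD1+ CD4, Mucosal Th1, Th17, Th2 and Tfh-like. Of 28 members with at least 50 fragments of both classes together in each library 12 were at least 2-fold higher in the innate and cytotoxic class in both libraries, against 1.65% of 16669 genes. In the cecum the CD4 helper class alone held under 50 fragments for each of the 12 but Klrd1. These members thus entered through the class where they were high, under a minimum that was the same for all genes. No member was 2-fold lower in both, against 1.16% of genes. The median log2 ratio over the 28 was 1.60 for the cecum and 0.77 for the tumor, beside 0.000277 and 0.0262 over all genes tested. The 18 other genes inside the complex had medians of 0.62 and 0.19, and of these Clec1b, a platelet lectin gene, was past the fold with 1.21 and 1.32. Of the marker lists, 2 of 4 NK cell genes and 1 of 6 B cell genes with enough fragments were past it, and 0 of 5 myeloid and 0 of 5 epithelial genes. The epithelial genes had a median log2 ratio of 0.59 for cecum cells and 0.77 for tumor cells, the latter as high as that of the Klr members. It was 1.0062 and 1.0072 for the NK cell genes, 0.15 and 0.24 for the B cell genes and 0.149 and 0.1498 for the myeloid genes. The part of such cells in the class ratios was not tested.

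By role, the members past the fold were a Klrb1 pair, Klrd1, Klrc2 and 8 of the 14 Klra members. Klrb1a had 377 fragments in the innate and cytotoxic class and 14 in the CD4 helper class of the cecum (21.3 and 1.33 FPM), and 600 and 85 for the tumor (22.3 and 5.86 FPM), log2 ratios of 4.01 (3.24 to 4.89) and 1.93 (1.60 to 2.27). Klrb1 had ratios of 3.27 (2.59 to 4.05) and 2.50 (2.06 to 2.97). Klrd1 was at 51.5 against 9.57 FPM for the cecum, and 52.3 against 22.96 for the tumor, ratios of 2.43 (2.13 to 2.74) and 1.19 (1.01 to 1.36). Its activating partner Klrc2 had 1.65 and 1.42. Klrc1 had 0.01 (-0.24 to 0.26) and -0.59 (-0.77 to -0.41), and with each label of a class weighted equally it had 0.22 and 0.20, so its direction in the tumor depends on the pooling. Klrk1 had 1.49 and 0.71 and Klre1 1.58 and 0.75, each past 2-fold in the cecum alone. With equal label weights both were past it in each library, with 1.61 and 1.12 for Klrk1 and 1.77 and 1.24 for Klre1.

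Among the Klra receptors the class ratio was above 0 for 14 of 14 members in cecum and 12 in tumor cells, with medians of 1.45 and 1.101. It was above 0 for 8346 and 9210 of the 16669 genes and for 12 and 11 of the 18 other genes of the complex. Klra8, Klra14-ps and Klra2 had under 50 fragments in the compared classes of the cecum. Klra7 (Ly49G) had the highest, 3.13 (2.40 to 3.96) and 2.20 (1.76 to 2.66), from 13.3 against 1.52 FPM for the cecum, and 15.2 against 3.31 for the tumor. Klra1 (Ly49A) followed in the cecum with 2.48 and had 1.62 in the tumor, Klra9 had 2.37 and 1.31, Klra6 2.33 and 1.53, and Klra5 1.91 and 1.12. Klra3 had 1.72 and 1.71, Klra13-ps 1.63 and 1.25 and Klra10 1.28 and 1.079, and the windows of Klra10 and Klra13-ps overlap. The lowest were Klra8 in the cecum (0.41) and Klra4 in the tumor (-0.47), genes of activating Ly49 receptors. Both genes were below the closed chromatin percentile in each library. With equal label weights Klra4 had -0.29 and 0.36. Klrg1 had 0.31 (0.09 to 0.53) and 0.10 (-0.08 to 0.28) from pooled fragments, 0.56 and 0.82 with equal label weights, and -0.54 and -0.035 with the gene span alone. Klrb1b, at -0.37 and -0.37, was the 1 member whose interval lay below 0 in both libraries, and had 0.042 and -0.17 with equal label weights.

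**Figure D3:**
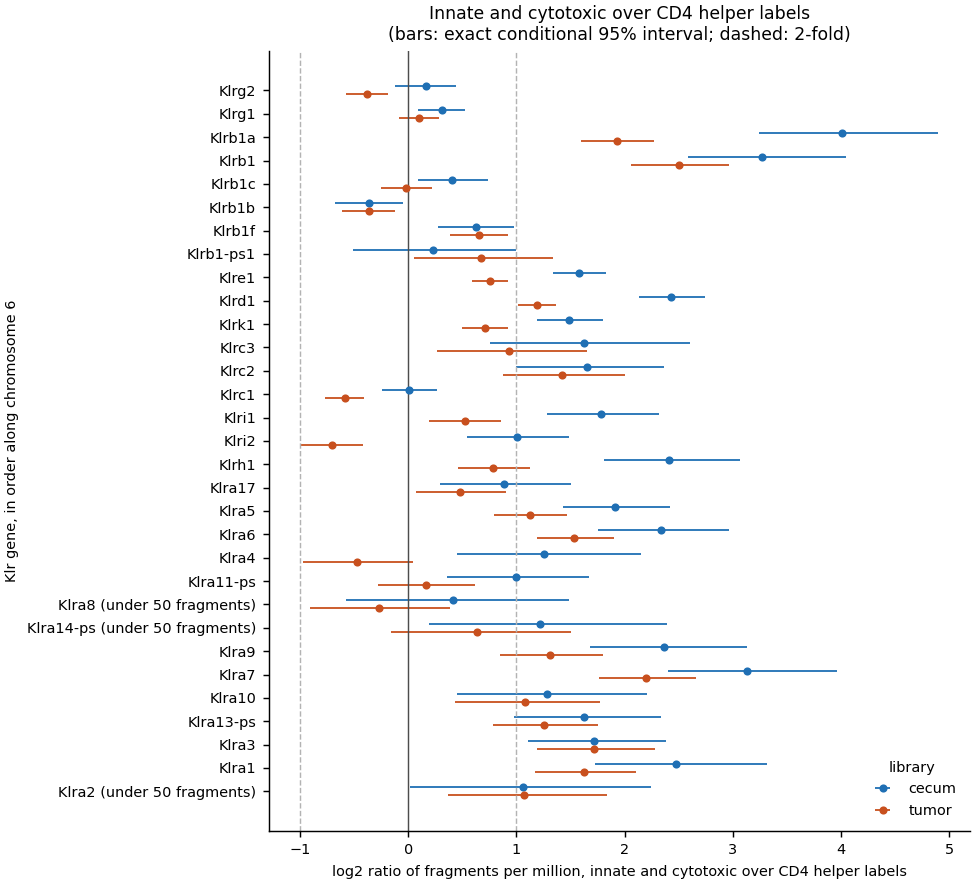
Log2 ratio of FPM in the innate and cytotoxic labels over the CD4 helper labels for 31 Klr genes (rows, in order along chromosome 6) in the cecum (blue) and tumor (orange), with exact conditional 95% intervals and dashed lines at 2-fold. Klrb1a (4.01) lies farthest right in the cecum and Klrb1 (2.50) in the tumor. Klrb1b lies left of 0 in both libraries. In the tumor Klri2 (-0.71), Klrc1 (-0.59), Klra4 (-0.47), Klrg2 (-0.38), Klra8 (-0.27) and Klrb1c (-0.02) also lie left of 0. Most cecum values lie right of the tumor values.

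For 26 of the 28 members the ratio was larger in the cecum than in the tumor, against 43.3% of the 16669 genes. This count was 20 without PD1+ CD4, whose cells are nearly all from the tumor, and 17 with equal label weights, and the tumor median then was 1.33 and 1.26. Without that label 15 members were past the fold, the same 12 and Klre1, Klrh1 and Klrc3, and the tumor ratio was 3.37 for Klrb1a, 1.63 for Klrd1, 0.98 for Klrk1 and 0.43 for Klrg1. No share over all genes is given without PD1+ CD4 or with equal label weights. The counts of 20, 17 and 15 therefore have no background to be read against. Klri2 was at 23.8 FPM in tumor PD1+ CD4, against at most 16.9 in the other labels, and its tumor ratio was -0.71 (-0.995 to -0.42) with the label and 0.58 without it. Its cecum ratio was 1.0015, and with equal label weights the ratios were -0.067 and 0.18, so both directions turned. With narrower windows, which hold fewer fragments, 4 of 10 members with enough fragments were past the fold within 1 kb of either gene end, against 1.97% of 12861 genes, and 3 of 8 within 1 kb of an annotated start, against 1.84% of 10102 genes.

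Within windows the fragments lay in few places. From Klre1 to Klrc1, 48 tiles of 500 bases had at least 20 fragments of the compared classes in each library, and 44 of them were higher in the innate and cytotoxic labels in both libraries and 1 lower in both, against 37.7% and 32.1% of 193343 such tiles over all chromosomes. The stretch holds the windows of Klre1, Klrd1 and Klrk1, whose class ratios are given above, and the minimum sums both classes. This count thus describes the same fragments and is no separate support. The largest ratios lay in Klrd1. The tile chr6:129595001-129595500 held 81 fragments of the innate and cytotoxic class and 1 of the CD4 helper class for the cecum, and 104 and 3 for the tumor, log2 ratios of 5.60 (3.08 to 10.9) and 4.22 (2.64 to 6.52). Innate-like T#1 (5.7 and 4.2 FPM), Innate-like T#2 (5.7 and 4.6), CD8aa (7.4 and 4.3) and Cytotoxic gdT (2.7 and 4.1) had the highest levels there, while PD1+ CD8 was at 0.28 and 0.98. The tile chr6:129588001-129588500, at the low-coordinate end of Klrd1, had 3.69 and 2.46, and chr6:129594501-129595000 had 3.504 and 2.72. These tiles were chosen for their ratios or fragment counts, so their values are a description.

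Other tiles of the same stretch were shared more widely. The tile chr6:129591501-129592000 in Klrd1 was at 11.8 and 14.6 FPM in CCR7+ CD8 and 9.3 and 9.8 in CD8aa, and its class ratio was 2.03 and 0.69. The tile chr6:129608501-129609000, 1.32 kb outside Klrk1, was at 13.4 and 10.2 in Innate-like T#1 and 14.2 and 11.3 in CCR7+ CD8, with a class ratio of 1.86 and 0.76. The fullest tile, chr6:129680501-129681000 in Klrc1, ran the other way, with ratios of -0.41 (-0.72 to -0.10) and -0.80 (-1.04 to -0.57). It was highest in Rorgt gdT (33.8 and 32.0) and high in Th17 (25.3 and 26.5) and PD1+ CD8 (24.2 and 24.6), and stood at 11.6 and 8.7 in CD8aa and 8.2 and 8.0 in Innate-like T#1. It held 578 of the 895 cecum fragments and 964 of the 1622 tumor fragments of the Klrc1 window, so the Klrc1 level rests mostly on this site.

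**Figure D4:**
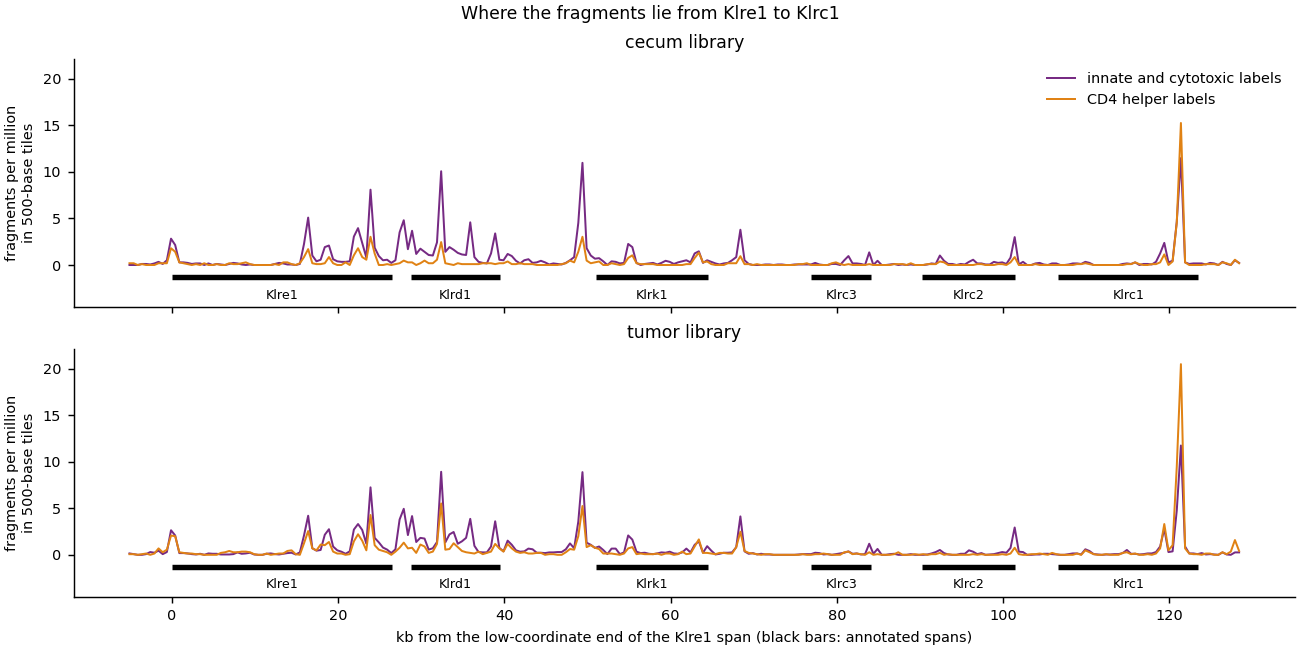
FPM in 500-base tiles from Klre1 to Klrc1, by distance in kb from the low-coordinate end of Klre1, for the pooled innate and cytotoxic labels (purple) and CD4 helper labels (orange) in each library, with black bars for the annotated spans. The purple line is above the orange line at most peaks from Klre1 to Klrk1, and the order is turned at the tallest peak, in Klrc1.

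The study contrasts Treg cells with and without IL10. Of 6 members with at least 50 fragments in each library, Klrg1 alone was at least 1.5-fold lower in IL10+ Treg in both libraries, against 4.79% of 14409 genes, and 0 were 1.5-fold higher in both, against 0.937%. IL10+ and IL10- Treg had 67 and 218 Klrg1 fragments in the cecum (11.7 and 72.6 FPM), and 72 and 400 in tumor cells (26.4 and 68.9 FPM). The log2 ratios were -2.63 (-3.05 to -2.23) and -1.38 (-1.77 to -1.02). In the cecum 6.02% of 996 IL10+ Treg cells and 31.1% of 424 IL10- Treg cells had a Klrg1 fragment, and in the tumor 13.4% of 387 and 34.2% of 737, while 2.15% and 3.15% of Innate-like T#1 cells did. Klrg2 had 0.18 and 0.21, and Klrc1 0.50 (-0.36 to 1.43) and 0.90 (0.21 to 1.58).

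Within the Klrg1 window the order of Treg and cytotoxic labels changed from place to place. The tiles given here too were chosen for their ratios or fragment counts, so their values are a description. At the tile chr6:122283501-122284000, 0.668 kb beyond the high-coordinate end of the gene, IL10- Treg had 21.7 and 21.2 FPM and IL10+ Treg 1.6 and 5.1, log2 ratios of -3.78 (-4.97 to -2.77) and -2.05 (-2.96 to -1.24). CD8aa was at 2.3 and 4.3 there, Cytotoxic gdT at 2.7 and 3.6 and Cytotoxic CD8 at 3.0 and 1.1. Th2, from 90 and 58 cells, was at 15.8 and 4.6, second to IL10- Treg in the cecum, so the site was not particular to IL10- Treg there. At the tiles from chr6:122284501-122285000 to chr6:122285001-122285500, 1 kb farther out, the order was turned. There CD8aa had 11.1 and 16.5 FPM in the nearer and 15.8 and 15.3 in the farther tile, against 6.7 and 4.5 and then 4.3 and 4.1 in IL10- Treg. Their class ratios were 2.76 and 1.41 and then 2.96 and 1.28, while the whole Klrg1 window had 0.31 and 0.10.

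At the other end of Klrg1 both kinds of cell were open. The fullest tile of the locus, chr6:122270001-122270500, had 20.4 and 11.6 FPM in CD8aa, 19.9 and 16.0 in Cytotoxic gdT, 11.997 and 9.3 in IL10- Treg and 12.5 and 10.8 in Mucosal Th1. IL10+ Treg was at 2.6 and 4.0 and Innate-like T#1 at 1.2 and 1.1. The Treg ratio at this tile was -2.19 and -1.21, and at chr6:122269001-122269500 it was -2.93 and -1.76. All 7 tiles with at least 20 fragments of the Treg labels together in each library were lower in IL10+ Treg in both, against 28.2% of 74601 such tiles over all chromosomes. The whole window was already lower in IL10+ Treg, and the minimum sums both Treg labels. This count thus describes the same fragments and is no separate support.

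**Figure D5:**
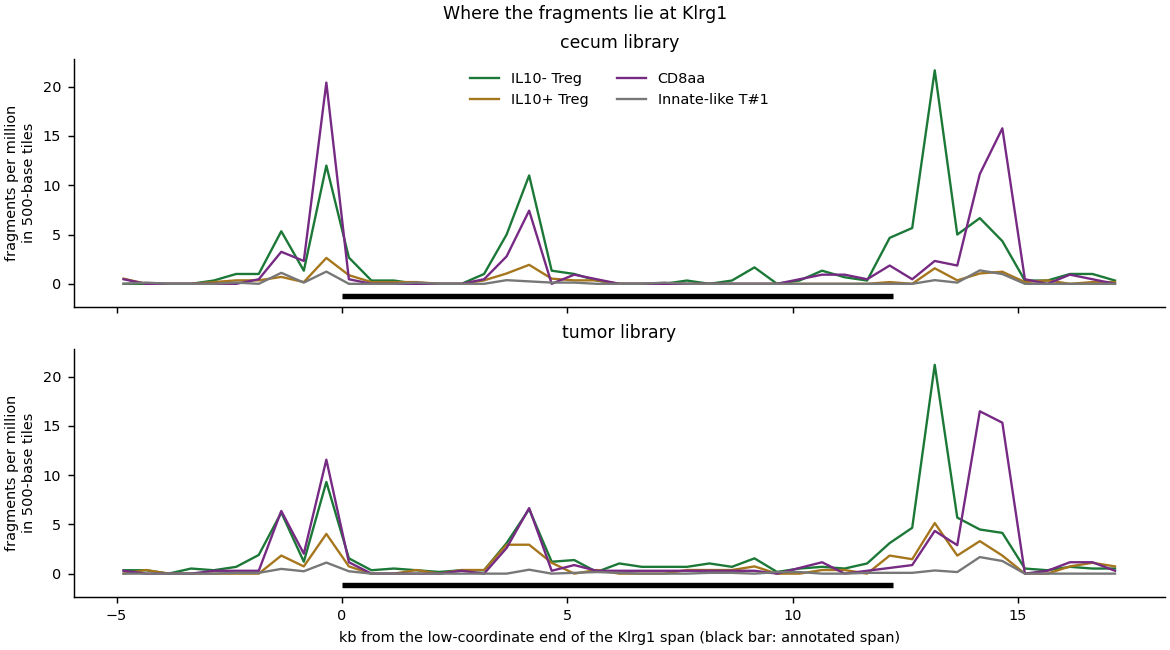
FPM in 500-base tiles at Klrg1 by distance in kb from the low-coordinate end of its span (black bar), for IL10- Treg (green), IL10+ Treg (brown), CD8aa (purple) and Innate-like T#1 (grey) in the cecum and tumor libraries. A peak of 21.7 and 21.2 FPM in IL10- Treg stands nearer to the gene than a separate peak of CD8aa, while both share the peak at the low-coordinate end. Th2, not drawn, had 15.8 and 4.6 FPM at the tile of that IL10- Treg peak.

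Between tumor and cecum most pairs of a member and a label stayed within 1.5-fold. Of 159 pairs of a member and a label with at least 50 fragments over both libraries, 14 (8.81%) were at least 1.5-fold higher in the tumor, against 3.28% of 212493 pairs over all genes, and 6 (3.77%) were at least 1.5-fold lower, against 2.09%. At least 1 such pair was found for 15 of the 28 members with a pair to compare. The median log2 ratio over the 159 was -0.01. Of these 20 pairs 14 had an interval that left out 0, and with at least 200 fragments no pair was past the fold, though the number of pairs tested at that minimum is not given. No member passed it in 3 or more labels in the same direction. Klrg1 was higher in the tumor in IL10+ Treg, 26.4 against 11.7 FPM, a log2 ratio of 1.17 (0.67 to 1.67), and was at -0.08 (-0.32 to 0.17) in IL10- Treg and at 0.01 (-0.31 to 0.34) in CD8aa. Klrd1 was higher in Mucosal Th1 (0.82) and was at -0.0045 (-0.18 to 0.17) in Innate-like T#1. Klra7 had the largest ratio, in Cytotoxic gdT, 10.7 against 2.33 FPM from 45 and 7 fragments, 2.21 (1.05 to 3.60). The other pairs past the fold upward with an interval above 0 were Klrb1b in Cytotoxic CD8 (0.93), Klrb1f and Klra17 in Cytotoxic gdT (0.995 and 1.20), Klrc1 in IL10+ Treg (0.81), Klrb1c in Mucosal Th1 (0.85) and Klrg2 in Rorgt gdT (0.95). Intervals that held 0 were those of Klrb1c and Klra3 in CD8aa, Klra1 in PD1+ CD8, Klrg1 in Th17 and Klrk1 in newly activated CD4, with ratios from 0.59 to 1.304, and of Klrb1a in Innate-like T#2 (-0.61). Lower in the tumor were Klra9 in Cytotoxic gdT (-0.83), Klrb1c in IL10- Treg (-0.74), Klra4 in Innate-like T#1 (-0.87) and Klrb1b in Rorgt gdT (-0.82). Klrg1 in Th2 was lower too, -1.36 (-2.30 to -0.51), and at -0.80 (-1.79 to 0.12) without the cell named above.

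Across the 16 labels and 2 libraries, 32 points that share depth and nuclei within a library, likeness was described by Pearson r of log2(FPM + 1) with no test. Klrg1 was most like Myadm (0.90), Ptafr (0.88), Unc79 (0.88) and Nlrp12 (0.86), of which Myadm and Nlrp12 lie close together on chromosome 7. Klrd1 was most like Cd7 (0.94), Nin (0.93), Pik3cd (0.91), Cdyl2 (0.90) and Mrvi1 (0.90). For Klrk1 the list was Klre1 (0.89), Klrd1 (0.87), Gpd2 (0.86), Ifitm5 (0.85) and Slc15a1 (0.85). Between members whose windows do not overlap the median r was 0.49 over 460 pairs. With Klrg1 it ran from -0.05 to 0.58 with a median of 0.21, and the median was lower still for Klrb1-ps1 (-0.023), Klrg2 (0.13) and Klrb1b (0.14).

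The genes around the receptors were compared in the same way. Of 15 ligand genes 12 were in the table and 11 had enough fragments, and none of the 11 was past the class fold, with medians of -0.08 and -0.12. Of 11 adaptor and signalling genes 2 were past the class fold, higher in the innate and cytotoxic labels, against 1.65% of 16669 genes. Sh2d1b1, which encodes the SAP-family adaptor EAT-2, was at 15.3 against 0.758 FPM for the cecum, and 19.0 against 1.24 for the tumor, log2 ratios of 4.33 (3.33 to 5.56) and 3.94 (3.26 to 4.70), and Fcer1g, an ITAM adaptor chain, had 2.22 and 1.61. The paper describes the innate-like clusters as Fcer1g+ from transcripts of these nuclei. Fcer1g is thus not independent of the labels and is no separate support. Among 11 transcription factor genes 0 were past the class fold. Ikzf2, which encodes Helios, was the 1 past the Treg fold, lower in IL10+ Treg with -1.21 and -0.89, against 4.79% of 14409 genes. The paper reports Ikzf2 transcripts mainly in the IL-10- subset of these nuclei, so this too is no separate support.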

How the data were processed

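Nuclei of T cells sorted from AKP tumors and adjacent cecum were profiled with a 10x multiome assay, and the 2 ATAC libraries, 1 per tissue, were used. Alignment and fragment calling were done by the authors with Cell Ranger ARC 2.0.0 against mm10, per the file headers. Each deposited line is 1 deduplicated fragment with its barcode and a raw count of read pairs, and its ends are shifted for the transposase by that pipeline. Labels and library of each cell were taken from the deposited metadata. The methods read for this work name no step against doublets, no doublet caller was run, and cells above 3 times the median fragment count were left out in an alternative. The sources used here do not say how reads with several equally good places were treated.

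On the autosomes, X and Y, a fragment counted once per gene when an end lay in the RefSeq span (GRCm38.p6) extended by 5 kb, summed per label and library, and scaled per 1000000 labelled fragments. Genes were protein coding, with the Klr pseudogenes and Trdc added. Levels carry exact Poisson intervals and log2 ratios exact conditional intervals, both 95% and for counting error only. A count of 0 was put at a floor of 3 fragments in ratios. A gene was past the fold at 2-fold (classes) or 1.5-fold (Treg cells, tissues), in the same direction in both libraries for the first 2 comparisons, with at least 50 fragments in each library, or over both libraries for tissues. Genes named in full were Klrg1, Klrd1 and Klrk1, the 8 members with the highest FPM per kb and every member past a fold, and the others are given by count and range. The fragment counter was tested on simulated fragments. Promoter bases were compared with a global alignment (Biopython 1.88). Python 3.11.15, numpy 2.4.6 and scipy 1.17.1 were used. The members and gene lists were chosen with earlier results of these data known. The alternatives, given in the closing section, changed the window, the fragment minimum, the scaling, the pooling of labels and the cells kept. Some items of the study and of the likeness lists are not reported here.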

Additional observations from a re-analysis of the deposited data

Results flagged for a closer look

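Klri2 was higher in the innate and cytotoxic labels in the cecum, with a log2 ratio of 1.00149, and lower in the tumor, with -0.71. The difference between the libraries was not tested, and without PD1+ CD4 the tumor ratio was 0.58. With each label of a class weighted equally the ratios were -0.067 and 0.18, so both directions turned.

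For 3 members the tumor over cecum ratio went past 1.5-fold in opposite directions in different labels, and the difference between the labels was not tested. Klrb1b had a log2 ratio of 0.93 in Cytotoxic CD8 and -0.82 in Rorgt gdT. Klrb1c had 0.85 in Mucosal Th1 and -0.74 in IL10- Treg. Klrg1 had 1.17 in IL10+ Treg and -1.36 in Th2, where 1 cecum cell held 17 of the 50 fragments.

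Barcodes with at least 1000 fragments and no label, 1592 for the cecum and 2044 for the tumor, also held fragments in the joined Klr windows. Their level was 264 FPM (256.1 to 272) beside 269.6 in labelled cecum cells, and 330 FPM (323 to 337) beside 321 in labelled tumor cells. What these barcodes are was not tested.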

How the results depend on the processing

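With 1 library per tissue, the spread between animals is not known, and the intervals cover counting error only. No paired analysis was possible because each tissue has 1 library and no replicate numbers. Of the alternatives for counts and main values, 96 kept their value within the limits used and 31 moved, and of those for single genes 607 kept it and 140 did not. Fragment minimums cannot move a ratio and were left out for ratios only, so the alternatives for counts include them. The sign of a single gene's class or Treg ratio turned in 49 cases, of which 12 were near gene ends, 10 near starts and 10 with each label of a class weighted equally, a setting that gives the 14 PD1+ CD4 cells of the cecum the weight of a whole label. Of the 49, 7 were ratios of members past the fold. Windows within 1 kb of an annotated start and the loss of 1 Th2 cell were chosen after seeing the data. The cause of each change was not tested, beyond narrower windows holding fewer fragments.

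The 12 members higher in the innate and cytotoxic labels were 7 of 21 with enough fragments for gene spans alone, 6 of 17 with at least 200 fragments, 3 of 8 near starts and 4 of 10 near gene ends, beside 1.76%, 1.47%, 1.84% and 1.97% of all genes. With no minimum, 8 of the 28 members compared in full windows were past the fold near gene ends, and 6 of the 22 with a value near starts. No share over all genes is given without a minimum, and such ratios can rest on few fragments or on the floor. The counts of 8 and 6 therefore have no background to be read against. The 15 members with 1 leading label were 6 of 8 near starts and 4 of 13 near gene ends. Klrg1, lower in IL10+ Treg, has no start in the table, so the count of 1 was 0 near starts. The 14 pairs higher in the tumor were 6 with spans, 36 and 0 with at least 20 and 200 fragments, 2 near starts and 1 near ends, and the 6 lower pairs were 2, 15, 0, 0 and 1. The pairs tested and the share over all genes are not given for these settings, so these counts cannot be set side by side. The Treg ratio of Klrg1 moved from -2.63 to -3.12 near ends (cecum) and from -1.38 to -0.90 with the span (tumor). Over the median label, Klrd1 in CD8aa moved from 2.48 to 3.30 near ends (cecum) and from 1.73 to 1.54 with the span, 1.38 with unshared parts and 1.95 near ends (tumor). Klrk1 in CD8aa moved from 1.31 to 1.69 with the span, 0.79 near starts and 0.83 near ends (cecum), and from 1.085 to 1.93 with the span and 0.61 near ends (tumor). Klrg1 in Th2 of the cecum moved from 1.53 to 2.71 with the span, 0.81 without cells above 3 times the median depth and 0.97 without 1 cell. Among members past the fold, class ratios changed sign near starts for Klra10 (-0.74) and Klra3 (-0.0070) in the cecum and Klra5 (-0.044) in the tumor, and near ends for Klra10 (-0.74) and Klra13-ps (-0.0070) in the cecum and Klra5 (-0.11) and Klra9 (-0.044) in the tumor.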

Other observations

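Among barcodes without a label, Klra2, a Ly49 gene known from myeloid cells, was at 4.16 FPM (3.22 to 5.28) in the cecum, above its level in each of 16 labels, but its interval overlapped that of the highest of these, 3.89 (2.12 to 6.52) in PD1+ CD8 from 14 fragments. It was the 1 member of 31 above its highest label in the cecum, and 0 members were in the tumor.

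Across the NK gene complex, 275 bins of 10 kb were counted, and the 10 fullest held 50.8% of its cecum fragments and 46.2% of its tumor fragments. The bins ran from before Klrb1a to past Klra2 and also held other genes, Cd69 and Clec2d among them. These shares are thus of all fragments there and not of Klr sites alone.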
